A study of Mus musculus with 12 samples.

Results

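Small leucine-rich proteoglycans and matricellular proteins were followed in mouse hair follicle stem cells (HFSCs), the bulge cells that rest in telogen and feed a new hair in anagen. The 10 genes were Bgn, Dcn, Aspn, Lum, Fmod, Ogn, Postn, Tnc, Sparc and Fn1, matched by symbol among 17885 genes of an Eed iKO table and 21915 genes of a hair cycle table, and all 10 were present in both. They were taken as a family around Bgn, a gene selected on its high anagen values, so the difference between anagen and telogen is described here without a test. The comparison of Eed iKO with control was not used in that choice, and it was tested.

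RNA was sequenced in 12 libraries of HFSCs sorted from back skin (EpCAM+ and CD34+ cells with high α6-integrin and no Sca1), with 3 libraries in each of 4 groups, all from C57BL/6J mice. The hair cycle table compared wildtype anagen HFSCs of mice aged 28 to 30 days with wildtype telogen HFSCs of mice aged 50 to 52 days. The Eed iKO table compared mice aged 70 days, in which the Eed iKO group carried K15-CrePGR and Eed fl/fl and received 100 µl of RU-486 at 10 mg/ml daily for 7 days from day 50, while the control group is labelled wildtype and was given the ethanol vehicle. EED is a core subunit of PRC2, the complex that writes H3K27me3. K15-CrePGR acts in the keratinocytes of the bulge when RU-486 is applied, and the paper counts the hair germ as part of the bulge. Eed in cells outside the bulge was not measured here. The labels do not say whether a library is 1 animal, and where libraries share animals or litters the p-values measure only the spread between libraries. For the Eed iKO comparison, the paper describes 3 biological replicates per group from more than 1 litter. For the hair cycle comparison, it gives a number of animals but not how they were divided among the libraries. Hair cycle stage cannot be told apart from age here, nor the Eed iKO genotype from RU-486.

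Every value below is a normalized count, the count of a gene divided by the DESeq2 size factor of its library, as the authors deposited it. Each table was scaled on its own. Between 33269583 and 57063586 reads stand behind each library of the Eed iKO table. Reads could not be recovered for the hair cycle libraries, which sum to 11370984 to 13186648 normalized counts. Eed mRNA was at 933, 1361 and 1001.5 in the Eed iKO libraries, no lower than the 1084, 1249 and 950.2 of control (log2 fold change -0.01, SE 0.22, adjusted p = 0.993 by limma), and the group is therefore given by its label. The paper itself reported lower Eed mRNA by RT-qPCR in sorted Eed iKO HFSCs, and reduced H3K27me3 by immunofluorescence at the same age. Krt15, Sox9 and Lhx2, which mark HFSCs, were present in all libraries, and Ly6a, which encodes the Sca1 antigen gated out, was at 5.59 to 170.5. The gate markers Cd34 and Itga6 differed between the hair cycle stages. Cd34 averaged 7963 in telogen and 3444 in anagen (adjusted p = 0.00382 by limma), and Itga6 averaged 5871 and 11220 (adjusted p = 0.0144 by limma). The other HFSC and gate markers gave no call between the stages, and none gave a call between Eed iKO and control. Of the 12 dermal fibroblast markers, Twist2 was listed at 0 in all 6 hair cycle libraries, while Fbln1 was at 539 to 1251, Col1a2 at 154 to 599.7, Col1a1 at 45.5 to 419 and Thy1 at 35.9 to 110.2.

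Small leucine-rich proteoglycans are secreted core proteins built of leucine-rich repeats, most of which carry chondroitin, dermatan or keratan sulphate chains. They bind collagen fibrils and set their spacing, and several also hold growth factors such as TGF-β. Matricellular proteins sit in the matrix without building its main fibres and act on cells through integrins and other receptors. In skin both families are known mainly as products of dermal fibroblasts, while basal keratinocytes lay down matrix of their own at the basement membrane. In the bulge, the matrix around the stem cells is part of the niche.

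The members went in opposite directions between the hair cycle stages. Bgn, Dcn and Tnc were higher in all 3 anagen libraries than in any telogen library, Postn, Aspn and Fmod were lower in all 3, and Sparc, Fn1, Ogn and Lum overlapped between the stages. On log2(normalized count + 1), 4 of the 9 members that passed the filter on low values were more than 1 unit higher in anagen (Bgn, Dcn, Tnc and Ogn) and 3 were more than 1 unit lower (Postn, Fmod and Aspn). Over all 13457 genes tested, 10.6% were higher by that measure and 10.6% were lower. The groups did not overlap for 3 members higher in anagen and 3 lower, beside 18.1% and 15.2% of all genes tested. Because this contrast chose the members, nothing is read from these shares.

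**Figure D1:**
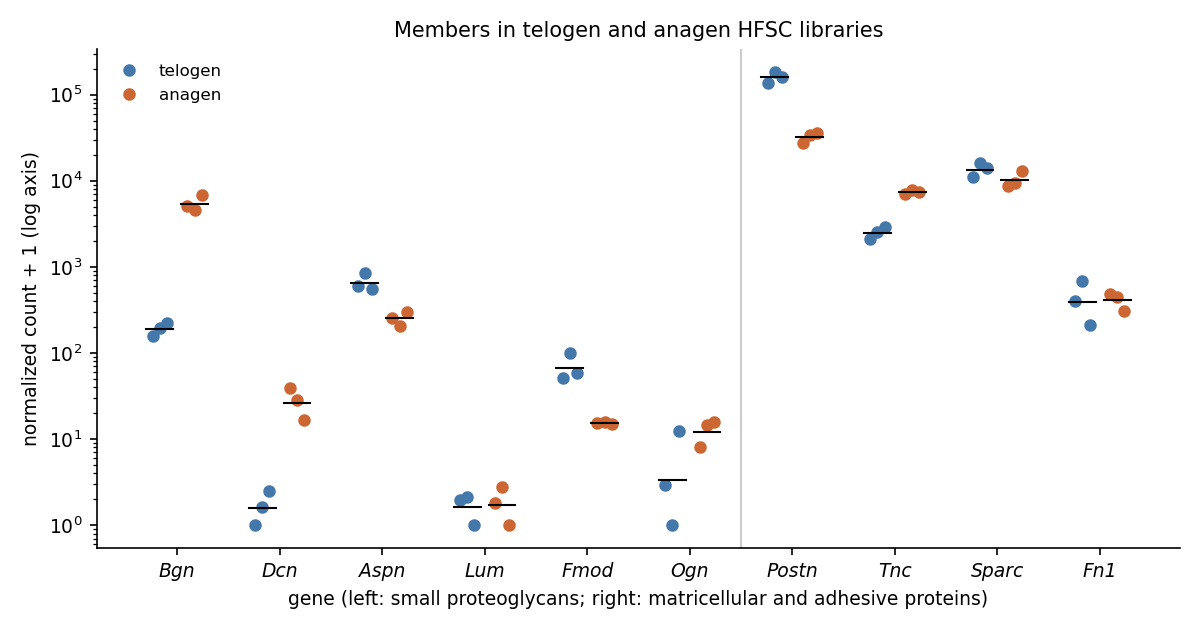
Normalized count + 1 (log axis) of each member in the 3 telogen and 3 anagen libraries, with 1 point per library and a bar at the mean of the log values. Bgn, Dcn and Tnc lie higher in anagen, Postn, Aspn and Fmod lie lower, and the other 4 genes overlap.

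Promoter sequence is shown for Bgn and Postn, the members with the largest differences on log2(normalized count + 1) in each direction, and for Tnc, the matricellular member that was higher in anagen, since these genes moved apart. With a pseudocount of 0.1 the difference of Dcn exceeded that of Bgn. The 150 bases before the annotated start are given 5′ to 3′ on the strand of the gene (RefSeq, GRCm38.p6), with matches to the letters searched in capitals. These are chrX:73483451-73483600 on the plus strand for Bgn, chr3:54360957-54361106 on the plus strand for Postn and chr4:64047016-64047165 on the minus strand for Tnc.
Bgn: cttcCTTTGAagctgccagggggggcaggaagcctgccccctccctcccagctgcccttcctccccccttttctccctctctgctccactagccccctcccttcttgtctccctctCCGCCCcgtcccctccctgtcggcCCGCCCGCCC
Postn: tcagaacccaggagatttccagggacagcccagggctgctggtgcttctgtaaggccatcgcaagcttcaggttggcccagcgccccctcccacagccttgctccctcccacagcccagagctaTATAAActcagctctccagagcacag
Tnc: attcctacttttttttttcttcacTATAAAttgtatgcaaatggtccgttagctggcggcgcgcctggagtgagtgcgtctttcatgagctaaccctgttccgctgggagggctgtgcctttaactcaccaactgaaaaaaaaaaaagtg

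In 250 bases before each start, both strands were searched for the TATA box by the letters TATAAA, for the GC box by GGGCGG, for the CCAAT box by its name, for AP-1 sites by TGANTCA, for TEAD sites by CATTCC, for SMAD sites by CAGACA and for LEF/TCF sites by CTTTGA. The window of Bgn held 3 GC boxes on the minus strand, of which the last 2 overlap each other, and 1 CTTTGA, with no TATAAA. The window of Postn held TATAAA 26 bases before the start and no other match. Tnc had TATAAA at base -126 and a GC box at base -167, upstream of the part shown. Among the same windows of 32851 RefSeq promoters, TATAAA was present in 12.4%, GGGCGG in 32.7% and CTTTGA in 13.8%, while CCAAT was in 33.8%, TGANTCA in 6.75%, CATTCC in 12.6% and CAGACA in 17.1%. Of the 10 members, 7 were matched in the promoter table, and Dcn, Lum and Fn1 were not. Fmod had no match, Aspn had 2 TATAAA and 1 CCAAT, and Ogn had 2 TATAAA and 1 CATTCC. The Sparc window had 1 CAGACA, but it lies 3103 bases from the start in the gene annotation used for coordinates. A match is a run of letters and not a measured binding site.

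Among the class I proteoglycans, Bgn encodes biglycan, a core protein that carries chondroitin or dermatan sulphate chains and binds collagen (ENSMUSG00000031375.17, chromosome X from 73483602 to 73495933, plus strand, GRCm38). It was at 156, 191 and 224 in telogen replicates 1, 2 and 3, and at 5023, 4603 and 6868 in anagen replicates 1, 2 and 3. Every anagen library was at least 20.6-fold above every telogen library. The means were 190.4 ± 33.9 in telogen and 5498 ± 1205 in anagen (SD, n = 3), a ratio of 28.9, with a log2 fold change of 4.84. By log2 fold change Bgn stood at place 40 of the 13457 genes tested.

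Decorin, the product of Dcn, is the close relative of biglycan and is abundant around dermal collagen (chromosome 10 from 97479609 to 97518143). Dcn was at 0, 0.644 and 1.47 in telogen and at 38.5, 27.2 and 15.7 in anagen. The stages did not overlap. Per kb of exon, Dcn averaged 4.65 normalized counts in anagen, against 901.5 for Bgn. Telogen lay near the limit of detection, so the log2 fold change of 4.05 depends on the pseudocount and was 5.71 with a pseudocount of 0.1.

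Dcn is also a gene that dermal fibroblasts express strongly. The 12 fibroblast markers summed to 924 to 1838 in telogen and 1678 to 1822 in anagen, and 1 of the 5 that passed the filter rose (Col1a1, the main fibrillar collagen chain, at 65.5, 45.5 and 89.9 in telogen and 214, 227 and 419 in anagen, log2 fold change 2.06, adjusted p = 0.00928 by limma). Col3a1 was at 0, 0.423 and 0 in telogen and at 48.5, 6.75 and 20.2 in anagen, while Pdgfra was at 1.26 to 23.6 over the 6 libraries. Col1a2 lay the other way without overlap, at 233, 599.7 and 346 in telogen and at 154, 229 and 172 in anagen, and did not pass the test (adjusted p = 0.108 by limma). Fbln1 alone was at 539 to 1251 over the 6 libraries, and makes up most of each marker sum. The part of fibroblast RNA in the values of Dcn was not tested. In RNA from sorted populations, more cells of a type and more RNA per cell cannot be told apart.

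Aspn encodes asporin, a class I member without the usual glycosaminoglycan attachment site that binds TGF-β and collagen (chromosome 13 from 49544443 to 49567565). It went the other way, with 601, 852 and 549 in telogen and 256, 206 and 301 in anagen. The lowest telogen library was 1.82-fold above the highest anagen library. The means were 667 ± 162 and 255 ± 47.6 (SD, n = 3), and the log2 fold change was -1.38. Aspn lies within Cenpp, which is on the other strand, and 0.297% of its exon bases overlap exons of that gene.

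The class II gene Fmod encodes fibromodulin, a keratan sulphate proteoglycan that binds collagen fibrils (chromosome 1 from 134037254 to 134048277). Telogen libraries had 50.3, 97.8 and 56.8, and anagen libraries had 14.6, 14.9 and 13.8. Telogen was higher without overlap, with a log2 fold change of -2.11 for anagen minus telogen, and the anagen libraries spread little (SD 0.573). Lum, which encodes lumican and lies 46.985 kb from Dcn on chromosome 10, was at 0 to 1.11 in telogen and at 0 to 1.79 in anagen and did not pass the filter. Ogn, which encodes osteoglycin (mimecan) of class III, was at 1.94, 0 and 11.4 in telogen and at 7.10, 13.4 and 14.6 in anagen. The 2 stages of Ogn overlapped at these low values, and no difference could be read from its log2 fold change of 1.88.

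Postn was the most abundant member in both stages. It encodes periostin, a secreted protein with fasciclin domains that binds integrins and collagen (ENSMUSG00000027750.16, chromosome 3 from 54361109 to 54391037). The telogen libraries had 137916, 183492 and 162156, and the anagen libraries had 27256, 33642 and 36085. Telogen exceeded anagen 4.99-fold by the means (161188 ± 22803 against 32328 ± 4559, SD, n = 3), and the lowest telogen library was 3.82-fold above the highest anagen library. The log2 fold change was -2.32. In telogen, Postn alone took 1.199% to 1.43% of all normalized counts, and in anagen 0.210% to 0.274%.

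Tnc encodes tenascin-C, a hexameric glycoprotein of growing and remodelling tissue (chromosome 4 from 63959785 to 64047015, minus strand). It was at 2107, 2548 and 2909 in telogen and at 6952, 7897 and 7311 in anagen. All anagen libraries were higher, by 2.93-fold in the means (2521 ± 402 against 7387 ± 477, SD, n = 3), with a log2 fold change of 1.56. Part of the Tnc exons, 2.26% of the bases, overlaps exons of another gene.

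Sparc encodes osteonectin, a collagen-binding glycoprotein and a chaperone of collagen in the secretory path. Its telogen values were 10902, 16044 and 13978 and its anagen values were 8748, 9319.7 and 12908. The stages overlapped, with means of 13641 ± 2588 and 10325 ± 2255 (SD, n = 3). Fn1 encodes fibronectin, the adhesive protein bound by α5β1 integrin, and was at 396, 684 and 211 in telogen and at 488, 447 and 309 in anagen. The Fn1 libraries of the 2 stages also overlapped, and the telogen libraries spread more widely (SD 238) than the anagen libraries (SD 93.6).

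Per kb of exon, the order of the members changed with the stage. In telogen it ran from Postn (18523 ± 2620 normalized counts per kb, SD, n = 3) and Sparc (3601 ± 683) to Tnc (324 ± 51.7), Aspn (283 ± 68.7), Fn1 (36.8 ± 20.4), Bgn (31.2 ± 5.55) and Fmod (20.7 ± 7.79), with Ogn, Lum and Dcn at or under 1.73. The libraries of Tnc and Aspn overlapped in that order, as did those of Fn1 with Bgn, of Bgn with Fmod, and of the last 3 genes. In anagen, Postn (3715 ± 524) was followed by Sparc (2726 ± 595), Tnc (950.4 ± 61.4), Bgn (901.5 ± 197.5), Aspn (108 ± 20.2) and Fn1 (35.5 ± 8.01), with Dcn, Ogn, Fmod and Lum at or under 4.65. Postn overlapped with Sparc, Tnc with Bgn, Dcn with Ogn and Ogn with Fmod. Among all 21915 genes ranked per kb, Bgn moved from place 8495 in telogen to place 472 in anagen, Tnc from 1422 to 445, Aspn from 1676 to 4381 and Postn from 9 to 68.

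The genes whose profile over the 6 hair cycle libraries was nearest to that of Bgn were Depdc1b, Hist1h2ap and Adamts20. Each was centred on its own mean of log2(normalized count + 1), and the mean absolute difference from Bgn was 0.136, 0.140 and 0.2199. All 3 were listed at 0 in every telogen library and averaged 31.0 ± 6.92, 25.8 ± 7.76 and 37.9 ± 17.3 in anagen (SD, n = 3). With telogen at 0, their log2 differences depend on the pseudocount, and so does their nearness to Bgn, which was at 156 to 224 in telogen. Hist1h2ap belongs to a family of near-identical histone genes, and its counts are uncertain for that reason.

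Other genes of the same matrix biology were tested between the stages, in 5 lists of 181 genes in all. Of the 142 that passed the filter, 24 rose and 10 fell in anagen at an adjusted p under 0.05 by limma, beside 7.22% of all genes tested that were higher and 4.35% that were lower. The median log2 fold change was -0.12 for other proteoglycans, 0.28 for other matricellular and fibre-associated proteins, 0.36 for glycosaminoglycan chain synthesis, 0.33 for matrix processing and crosslinking and -0.06 for receptors of the members, and it was 0.01 over all genes tested. The number that rose was 14 without anagen replicate 1 and 13 without anagen replicate 2, and the number that fell was 6 without anagen replicate 1. Adjusted p-values here are limma values with Benjamini-Hochberg adjustment over all genes tested. Some called genes passed the filter only through the stage where they were high, such as Vcan, Fbn1 and Adamts15 in anagen and Spock3 in telogen. Their place among the genes tested rested on that stage.

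Of 27 other proteoglycans tested, 5 rose in anagen and 2 fell. Prelp, a small proteoglycan of connective tissue and basement membranes that lies 115.84 kb from Fmod on chromosome 1, was at 19.3, 46.3 and 54.0 in telogen and at 337, 367 and 417 in anagen. It rose by a log2 fold change of 3.32 (SE 0.44, adjusted p = 0.000895), while Fmod was lower in anagen. The large chondroitin sulphate proteoglycan Vcan (versican) was at 0 to 15.6 in telogen and at 76.2, 75.0 and 158 in anagen (adjusted p = 0.0103). Hspg2, which encodes perlecan of basement membranes, rose by 1.89 (adjusted p = 0.0406), although 1 telogen library had 716 and the other two 157 and 126. Spock3 fell by 3.29 and Sdc3, a syndecan, fell by 2.22 on the log2 scale (adjusted p = 0.0362 and 0.0342).

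Of the listed cluster neighbours other than Prelp, 3 were tested between the stages. Omd and Ecm2 flank Aspn on chromosome 13, with Omd 14.897 kb from Aspn and Ecm2 11.654 kb from it. Omd lies between Aspn and Ogn. Omd was at 3.80 to 44.5 in telogen and at 6.26 to 22.1 in anagen, and Ecm2 was at 31.2 to 136 and at 63.6 to 148. Neither gave a call (adjusted p = 0.998 and 0.437), nor did Optc beside Prelp (adjusted p = 0.983). Kera and Epyc, which follow Lum on chromosome 10, were listed at 0 in all 6 libraries.

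Of 29 other matricellular and fibre-associated genes tested, 5 rose and 6 fell in anagen. Thbs1 and Thbs2, which encode thrombospondins, both fell. Thbs2 was at 841, 984 and 786 in telogen and at 122, 83.6 and 86.9 in anagen (log2 fold change -3.16, adjusted p = 7.83e-05), and Thbs1 fell by 2.62 (adjusted p = 5.48e-05). Tnxb, which encodes tenascin-X, fell by 3.10 (adjusted p = 0.00473), opposite to the direction of Tnc. Among the genes that rose, Fbn1, the microfibril gene fibrillin-1, was at 0, 0 and 5.06 in telogen and at 132, 83.1 and 56.0 in anagen (adjusted p = 0.00244). Efemp1 (fibulin-3) rose by 2.07 and Npnt, which encodes the integrin α8β1 ligand nephronectin, rose by 1.12 (adjusted p = 0.0127 and 0.00268).

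Of 37 genes for glycosaminoglycan chain synthesis tested, 6 rose and 1 fell. Xylt1, whose enzyme adds the first sugar of the chain to the core protein, was the gene that fell, with 1002, 978 and 968 in telogen and 484, 544 and 579 in anagen (log2 fold change -0.88, SE 0.21, adjusted p = 0.0207). Chst2, a sulphotransferase, rose by 3.44 (adjusted p = 9.56e-05), the uronyl sulphotransferase Ust by 1.51 (adjusted p = 0.0296) and Chsy1, which extends chondroitin chains, by 1.40 (adjusted p = 0.00473).

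Of 29 genes for matrix processing and crosslinking tested, 6 rose and none fell. Adamts15, a protease of the family that cleaves versican, was at 0.606, 0.589 and 2.01 in telogen and at 91.5, 20.7 and 53.7 in anagen (adjusted p = 0.00474). Timp3, an inhibitor that binds matrix, rose from 484, 421 and 312 to 2204, 1977 and 1606 (log2 fold change 2.26, adjusted p = 0.000207), and the lysyl hydroxylase Plod2 rose by 3.21 (adjusted p = 0.0198).

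Of 21 receptor genes tested, 2 rose and 1 fell, beside 7.22% and 4.35% of all genes tested. These counts are near those shares, and nothing is read from them. Itgb6, which pairs with αv integrin to bind fibronectin, tenascin-C and latent TGF-β, rose from 2526, 2637 and 3024 to 7783, 8316 and 8290.3 (log2 fold change 1.58, adjusted p = 0.000214). Cd44, a hyaluronan receptor, rose 2.76-fold by the means (adjusted p = 0.00152). Itga4, the α4 integrin chain, fell by 1.61 (adjusted p = 0.0144).

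**Figure D2:**
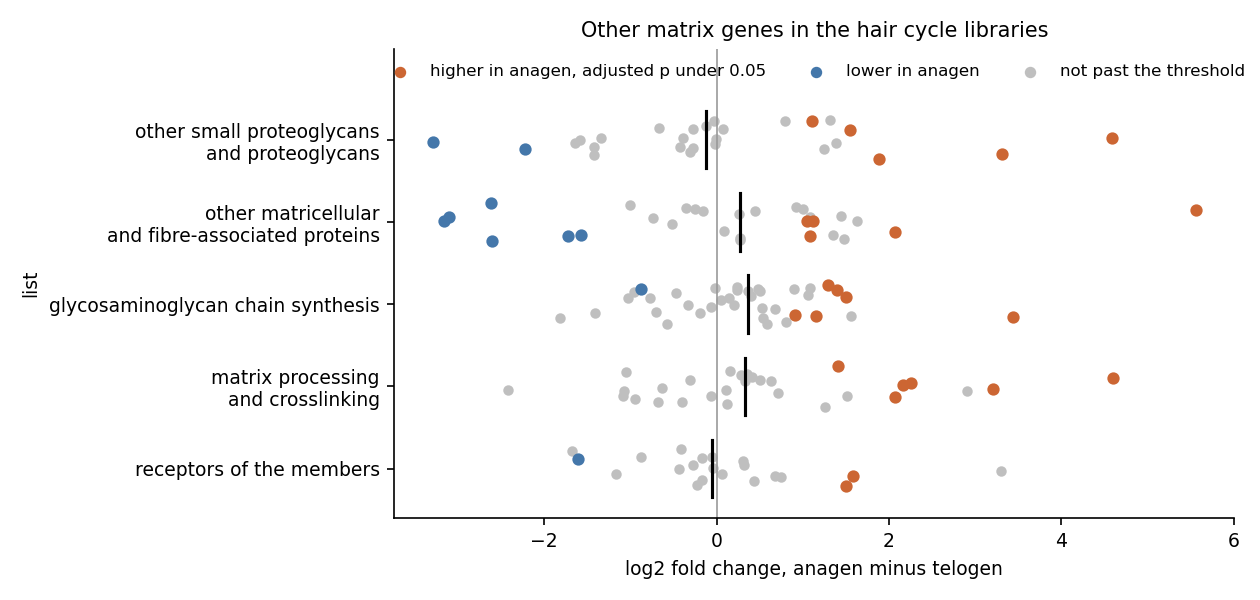
Log2 fold change, anagen minus telogen, of each tested gene in the 5 lists of other matrix genes, with 1 point per gene, spread vertically at random for legibility, and a bar at the median of each list. Orange points rose and blue points fell at an adjusted p under 0.05 (24 and 10 genes), and grey points did not pass.

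None of the 8 members tested in the Eed iKO table passed an adjusted p of 0.05 by limma, beside 0.0267% of all 15008 genes tested. At an unadjusted p under 0.05, 1 member passed (Sparc), beside 14.7% of all genes. By limma, no member passed the thresholds of the methods, an absolute log2 fold change over 1.5 with an unadjusted p under 0.05. Over all genes, 1.75% passed them. The paper used DESeq2 values, and its volcano plot legend gives a fold change of 1.5 with an adjusted p under 0.05. By that rule 0 members passed by limma and 1, Sparc, by DESeq2 on recovered reads. The groups did not overlap for 1 member, Sparc, which was lower, while 10.2% of all genes were higher without overlap and 10.0% lower. Counts of calls differed by tool, since edgeR on the recovered reads gave 0 members and DESeq2 gave 1, Sparc. The quasi-likelihood test of edgeR gave 5 calls among all genes and DESeq2 gave 673.

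**Figure D3:**
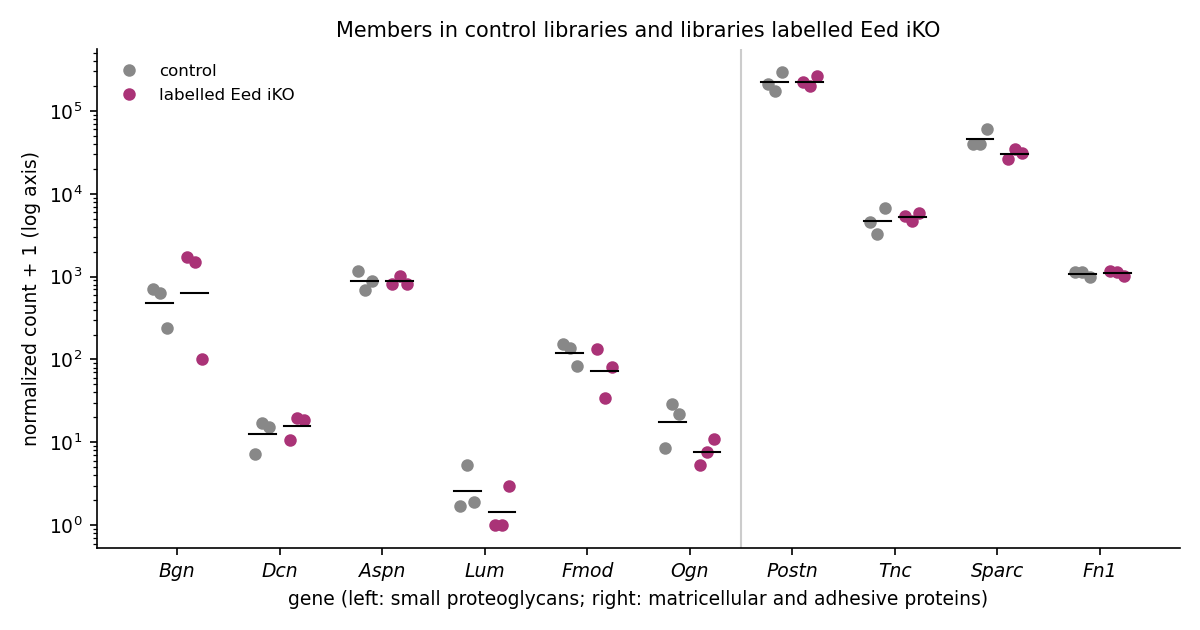
Normalized count + 1 (log axis) of each member in 3 control libraries and 3 libraries labelled Eed iKO, with 1 point per library and a bar at the mean of the log values. The groups overlap for 9 of the 10 members, and Sparc is lower in each of the 3 labelled libraries.

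Sparc (ENSMUSG00000018593.13, chromosome 11 from 55394500 to 55423183, minus strand) was at 40417, 40240.2 and 61078 in the control group. The libraries carrying the Eed iKO label had 26578, 34614 and 30903. All 3 were below the lowest control library, which was 1.16-fold above the highest of them. The log2 fold change was -0.60 (SE 0.19, 95% confidence interval -1.02 to -0.19, unadjusted p = 0.00877, adjusted p = 0.177 by limma with Benjamini-Hochberg adjustment). It was -0.62 with an adjusted p of 0.039 by DESeq2 on recovered reads. By limma with each library left out in turn it lay between -0.70 and -0.40, and the adjusted p did not pass. Sparc is strongly expressed by dermal fibroblasts, whose markers, of which 10 of 12 are in this table, summed to 7789 to 10765 in control and to 6941 to 7796 in the labelled libraries. Fbln1 alone was at 4855 to 7109 in control and at 4999 to 6191 in the labelled libraries, and makes up most of each sum. Of these markers, 2 were lower without overlap (Col1a1 and Thy1) and 1 was higher (Col6a3), and none passed the test. The part of fibroblast RNA in the values of Sparc was not tested.

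Bgn varied more between libraries of a group than any other member tested in this table. Control replicates 1, 2 and 3 had 708, 629 and 240.3, and the libraries labelled Eed iKO had 1705, 1499 and 100.8. The first 2 labelled libraries were above all controls and the third was below all of them, so the groups overlapped. The log2 fold change was 0.42 (SE 0.90, interval -1.56 to 2.41, adjusted p = 0.864 by limma). On the recovered reads it was 1.06 by edgeR and 1.06 by DESeq2 (adjusted p = 0.559 and 0.655). By limma without Eed iKO replicate 3 it was 1.75 (unadjusted p = 0.00154, adjusted p = 0.0699), which passes the thresholds of the methods. Without Eed iKO replicate 1 it was -0.28, without Eed iKO replicate 2 it was -0.19, and without control replicate 3 it was -0.07.

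Proliferation markers moved with Bgn among the libraries labelled Eed iKO. The sum of Mki67, Top2a, Ccnb1, Cdk1 and Bub1b came to 1417, 3789 and 1393 for the controls in order of replicate number. For the labelled libraries it came to 10258, 9898 and 1066. The labelled libraries with high Bgn had the highest sums, and the one with low Bgn had the lowest. In control the order was not the same, since replicate 1 had the most Bgn and replicate 2 the highest sum. None of the 5 markers passed the test between the groups, with adjusted p-values of 0.23 to 0.738 by limma. In the hair cycle table the same sum was 613 to 804 in telogen and 17046 to 28320 in anagen, and all 5 markers rose. In the Eed iKO table, replicate 3 had the least Bgn of each group and the highest sums of interfollicular and of sebocyte markers. The 5 interfollicular and differentiated markers summed to 10887, 8680 and 39970 in control and 13446, 4515 and 57647 in the labelled libraries. The 5 sebocyte markers summed to 7675, 5670 and 15065 in control and 6877, 4696 and 12319 in the labelled libraries. The part of cycling, interfollicular or sebaceous cells in the Bgn values was not tested.

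**Figure D4:**
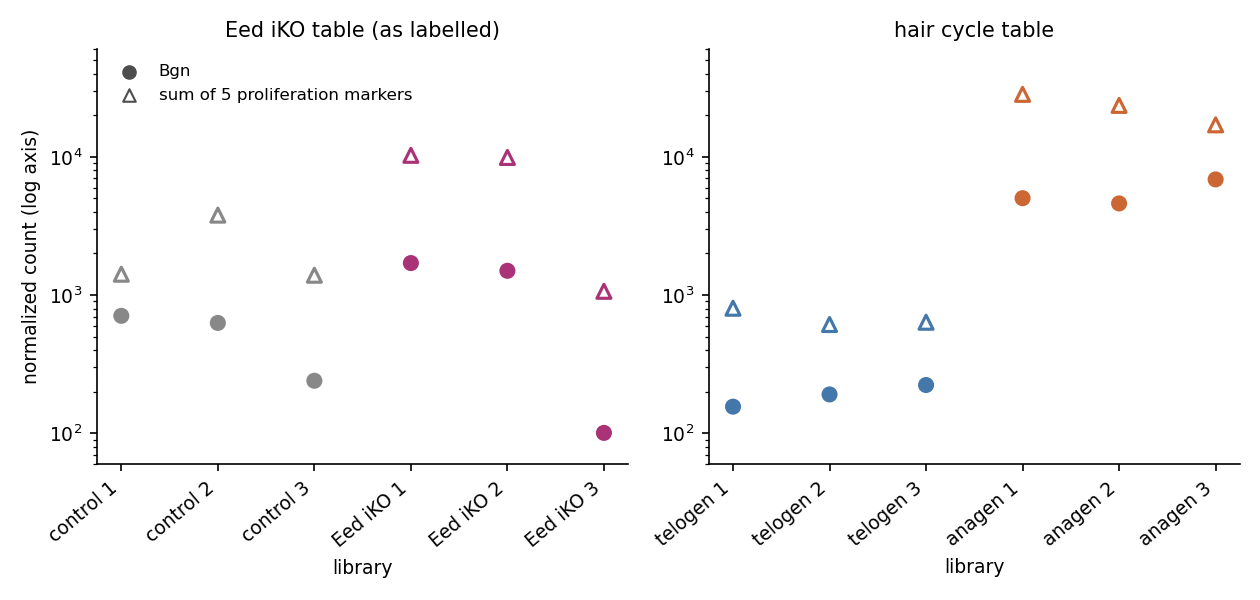
Normalized count (log axis) of Bgn (filled circles) and the sum of 5 proliferation markers (open triangles) in each library, with the Eed iKO table on the left and the hair cycle table on the right. Eed iKO replicates 1 and 2 are high in both (1705 and 1499 for Bgn), replicate 3 is low in both (100.8), and the anagen libraries are above the telogen libraries in both.

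The other proteoglycans showed no call. Fmod was at 153, 135 and 83.4 in control and at 132, 33.2 and 80.1 in the libraries labelled Eed iKO (log2 fold change -0.76, interval -2.06 to 0.55, adjusted p = 0.587 by limma). Aspn was at 1169.7, 692 and 879 in control and at 825, 1029 and 825 in the labelled libraries (log2 fold change -0.01, interval -0.54 to 0.52). Dcn was low in both groups, at 6.24, 16.2 and 14.5 against 9.68, 18.6 and 17.8, with an interval of -1.51 to 2.19. Both groups overlapped for each of these genes. Lum was counted by 1, 4 and 1 reads in control and by 0, 0 and 2 in the labelled libraries, and Ogn by 11, 26 and 23 against 4, 5 and 10. Lum and Ogn did not pass the filter and were not tested, and the Ogn values of the groups overlapped (7.63 to 28.2 and 4.30 to 9.89).

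Postn, Tnc and Fn1 overlapped between the groups. Postn was again the member with the highest level per kb, with 214280.0, 176167 and 295942 in control and 224599, 198835 and 260528 in the labelled libraries, a log2 fold change of 0.02 (interval -0.47 to 0.51, adjusted p = 0.981 by limma). It took 0.450% to 0.710% of all normalized counts in control and 0.450% to 0.638% in the labelled libraries. Tnc was at 4555, 3265 and 6780.4 in control and at 5450.4, 4706 and 5820.1 in the labelled libraries (interval -0.32 to 0.70, adjusted p = 0.754). Fn1 spread least, from 985 to 1145 in control and from 1010.4 to 1179.5 in the labelled libraries (interval -0.38 to 0.44, adjusted p = 0.951). For the genes in this paragraph, the intervals leave out a change of 1 log2 unit in either direction.

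**Figure D5:**
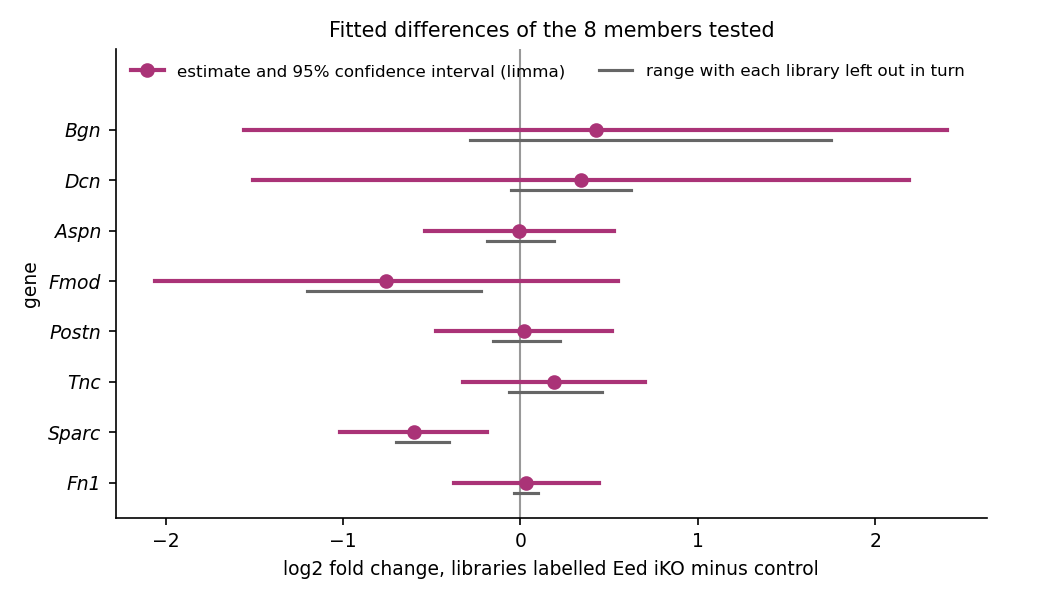
Log2 fold change of the 8 tested members, libraries labelled Eed iKO minus control, with the 95% confidence interval from limma (thick line) and the range when each library is left out in turn (thin grey line). The interval of Sparc, -1.02 to -0.19, does not reach 0, but it is not adjusted for the number of genes tested. After adjustment Sparc did not pass (adjusted p = 0.177 by limma), and 14.7% of all genes had an unadjusted p under 0.05. The intervals of Bgn, Dcn and Fmod are the widest.

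Of the 152 other matrix genes tested in the Eed iKO table, 0 passed an adjusted p of 0.05 by limma or by edgeR on recovered reads. An unadjusted p under 0.05 by limma was found for 14, beside 14.7% of all genes tested. DESeq2 on recovered reads called 1, Xylt1, beside 4.48% of all genes tested. Xylt1 was at 6463, 4895 and 5458 in control and at 3589, 4105 and 3818 in the labelled libraries (log2 fold change -0.54, SE 0.15, adjusted p = 0.144 by limma). It is named after its values were seen, because it was the single call of DESeq2. The thresholds of the methods were passed by 1 of the 152 genes, Plod2, at 289, 98.6 and 62.6 in control and at 47.3, 9.30 and 35.6 in the labelled libraries (log2 fold change -2.22, unadjusted p = 0.0164, adjusted p = 0.222 by limma). Over all genes tested, 1.75% passed these thresholds. The list medians lay between -0.17 (other proteoglycans) and 0.11 (other matricellular and fibre-associated proteins), beside 0.00 over all genes tested. Prelp, which rose in anagen, was at 71.5 to 218 in control and at 91.6 to 131 in the labelled libraries (adjusted p = 0.963 by limma).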

How the data were processed

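The authors sorted HFSCs, made cDNA with the NuGEN Ovation V2 kit, sequenced paired ends and mapped them with Kallisto (0.42.5 per the labels) to Gencode transcripts of mm10. The deposited signal is a size-factor-normalized count from DESeq2, given per gene and library. The deposited columns of the authors' own fold changes and p-values were not used. In the Eed iKO table, but not in the hair cycle table, each value was a multiple of the worth of 1 read, which gave the reads back.

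Each table was fitted on its own with limma 3.58.1 (intensity trend) on log2(normalized count + 1), which makes changes of low genes look smaller, after filterByExpr with a minimum count of 10, which left 15008 and 13457 genes. P-values were adjusted by Benjamini-Hochberg over all genes tested. edgeR 4.0.16 and DESeq2 1.42.0 on recovered reads, another pseudocount, no filter, TMM scaling, no trend, the replicate number as a block and leaving out each library were alternatives. The fit was tested on simulated data. Coordinates come from GENCODE vM21 (GRCm38), and levels per kb use the union of exons of a gene.

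The members and lists were chosen with earlier results of these data known. Genes named are the 10 members, their cluster neighbours, the called genes with the 3 largest and 3 smallest log2 fold changes of each list, the 3 genes nearest to Bgn and markers that moved with a result.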

Additional observations from a re-analysis of the deposited data

How the results depend on the processing

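Weak correlations did not settle whether replicate numbers pair the libraries. In the Eed iKO table, replicate 3 had the highest Krt1 of each group (11927 in control and 11058 in Eed iKO). Across genes, the centred values of libraries with the same number correlated at 0.039, 0.068 and 0.193 in the Eed iKO table and of -0.035, -0.071 and -0.029 in the hair cycle table. With the replicate block, 1 member (Sparc, adjusted p = 0.041) passed an adjusted p of 0.05 and 1 passed a linear fold of 1.5 with that adjusted p, and so did 1 and 1 with DESeq2, which also called 1 other matrix gene, beside 0 in each case by limma without the block. Among all 15008 genes tested, the block called 424 (2.83%) and DESeq2 called 673 (4.48%), against 4 by limma without the block. Leaving out each library moved the number of members past the thresholds of the methods between 0 and 1, that of other matrix genes higher in anagen between 13 (without anagen replicate 2) and 24, and that of genes lower in anagen between 6 (without anagen replicate 1) and 11. Without anagen replicate 1, 14 were higher.

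The sign of small differences in the Eed iKO table turned when 1 library was left out, with log2 fold changes of -0.28 to 1.75 for Bgn, -0.051 to 0.62 for Dcn, -0.19 to 0.19 for Aspn, -0.15 to 0.22 for Postn, -0.067 to 0.46 for Tnc and -0.03 to 0.10 for Fn1. Postn was at -0.001279 with edgeR and -0.007125 with DESeq2. The causes were not tested. Lum, Ogn and Dcn had 0 to 26 reads per library in the Eed iKO table, so their values are uncertain. Among the values of the members in the Eed iKO table, 87 of 104 alternatives kept direction and call. In the hair cycle table, where members were not tested, Dcn was at 5.71 with a pseudocount of 0.1, and Fn1 turned from 0.08 to -0.05 without anagen replicate 1 and to -0.35 without telogen replicate 3.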
